A study of Arabidopsis thaliana with 12 samples.

Results

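Of the 3278 regions that were less accessible in *h3.3ko* than in Col mature seeds, 257 (7.84%, 95% Wilson interval 6.97 to 8.81) had their midpoint inside a protein-coding gene and more than 500 bp from the transcription start site (TSS) of every protein-coding gene. They were chosen by the authors' call of lower accessibility and by position alone, so the loss itself and the distance from the TSS are not findings. The other decreased regions were 2250 with a midpoint within 500 bp of a TSS and 771 outside genes and farther than that from a TSS. On each of the 5 chromosomes the 257 regions made up between 5.85% and 9.57% of the decreased regions.

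Accessibility was measured by ATAC-seq, in which the transposase Tn5 inserts adapters mainly into DNA free of nucleosomes. Nuclei were sorted by flow cytometry from mature, after-ripened *Arabidopsis thaliana* seeds, with 2 libraries for WT (accession Col) and 2 for *h3.3ko*. The mutant is homozygous for htr4, htr5 and htr8 (CRISPR-Cas9 edits of HTR4 and HTR5 and a T-DNA insertion in HTR8), the genes that encode histone H3.3. Because the mutant is maintained over an HTR5 transgene marked with mCherry, *h3.3ko* seeds were the ones without red fluorescence among the progeny of plants carrying that transgene in heterozygous state, so their mother plants still made H3.3. The labels hold 12 libraries of 6 conditions, of which the 4 of mature seeds stand behind the values used here.

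Each region came with a single deposited value pooled over the libraries, the log2 ratio of accessibility in the mutant to that in Col (log2 fold change). No value per library is in the lists, which thus give neither the depth behind a region nor the spread between replicates, and no test between genotypes was possible. The intervals given below treat regions or genes as units and cover counting error only. Open sites without a change between genotypes are not in the lists, so genic sequence and regions of increased accessibility serve as comparison instead. Whether a trait described below is shared by unchanged open sites inside genes was not tested. Read counts in marker genes were not used here, so the labelled tissue was not checked against its markers.

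Histone H3.3 is the H3 variant that plants and animals place into chromatin outside DNA replication, and it is enriched over transcribed gene bodies, in vegetative tissues of Arabidopsis mainly toward their 3′ ends. Open chromatin in Arabidopsis lies mostly just upstream of genes, where transcription factors bind. Open sites inside genes are rarer, and are known to include intronic enhancers, alternative promoters, promoters of antisense RNAs and the 3′ ends of genes next to a neighbour's promoter. Members of the bZIP and bHLH families of transcription factors bind the G-box CACGTG, and TCP factors bind the site II element GGCCCA, which is common in promoters of housekeeping genes.

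The sequences below are shown because the centres of the 257 regions held these 2 motifs far more often than other sequence inside genes. They are windows of 30 bases of TAIR10.1 from RefSeq around the match nearest to the midpoint, written 5′ to 3′ on the strand of the host gene, with the match in capitals. The first 5 are the regions of largest decrease among those with a G-box in their central 200 bp, and the last 3 the same for site II, whose match reads TGGGCC where it lies on the strand opposite to the host.
AT2G44430, intron, chr2:18335087-18335116 plus strand: ctcaatccagtcCACGTGgcagagtcttgg
DND1, coding exon, chr5:5005856-5005885 minus strand: cacggtgctccgCACGTGtctcgatgctgt
HSFB2A, 3′ UTR, chr5:24917257-24917286 plus strand: agacaagcagagCACGTGtcccatctgttt
TRM25, coding exon, chr5:24973108-24973137 minus strand: gattaaggcttcCACGTGgataaaagaatt
AT1G19210, 3′ UTR, chr1:6626837-6626866 minus strand: ctatttttttccCACGTGttagatttttca
PERK14, coding exon, chr4:15780913-15780942 plus strand: tcttcctttcttTGGGCCagcgggccaatt
AT2G42150, intron, chr2:17573415-17573444 plus strand: tccgtgaccggtTGGGCCgaaaccacgtcg
AT4G28080, intron, chr4:13957226-13957255 minus strand: taatgggccctaGGCCCAaatagtgacggt
The features named are those under the motif itself. The G-boxes lay between 837 bp (AT1G19210) and 2586 bp (TRM25) from the TSS of their gene, and the site II matches between 867 and 1124 bp. TRM25 had 4 G-boxes in its region, 3 of them in the central 200 bp. PERK14 and AT4G28080 had 2 site II matches each, the second in AT4G28080 lying within the window shown.

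The 257 regions fell in 254 genes, which are 0.926% of the 27444 protein-coding genes and 0.981% of the 25880 genes with any base more than 500 bp from every TSS. All but 3 of these host genes held a single such region. AT4G35240, annotated as a DUF630 and DUF632 protein, held a pair of them, both in its first intron of 2527 bp, at 863 bp (log2 fold change -2.46) and 1886 bp (-1.86) from the TSS. ADS1, a MATE efflux carrier, held 2 in its only exon (-1.35 and -1.91), and SKS6, a member of the SKU5 family of multicopper oxidase-like proteins, held 2 in its second intron (-1.59 and -1.56). Another 3 regions had a midpoint shared by a pair of overlapping genes and were counted for the gene that shares more bases with them.

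The decrease was moderate at most of these sites. The median log2 fold change was -1.62 (95% interval -1.71 to -1.55), against -2.01 for decreased regions within 500 bp of a TSS and -1.67 for those outside genes. A loss of more than 4-fold was listed for 64 of the 257 (24.9%, 20.0 to 30.5), compared with 50.2% near a TSS and 23.9% outside genes. These values belong to the contrast that chose the regions and are given as a description. In width the 257 regions had a median of 568 bp, between the 472.5 bp of regions near a TSS and the 596 bp of those outside genes.

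The largest decrease was at PERK14, which encodes a proline-rich extensin-like receptor kinase. Its region at chr4:15780722-15780984 had a log2 fold change of -3.46 and lay in a coding exon 942 bp from the TSS, and it ranked at place 17 of all decreased regions. Next was SDE5 (-3.33), whose product acts in RNA silencing. The midpoint lay 1850 bp from the TSS of the gene, in the 5′ UTR of an alternative isoform and 61 bp from an inner TSS. AT2G42150, a bromodomain protein, had -3.21 at 1036 bp from the TSS, and AT4G28080, a tetratricopeptide repeat protein of 9505 bp gene length, had -3.20 at 961 bp. AT5G06330 (-3.11, 3′ UTR), AT5G28919 (-3.11, coding exon), AT4G32460 (-3.08, intron), the vacuolar calcium pump gene ACA4 (-2.85, 5′ UTR) and the SWIB domain gene AT1G31760 (-2.81, 5′ UTR) were also among the 10 largest decreases. The remaining one, AT2G26360 (-2.87), encodes a mitochondrial carrier and had its midpoint 4 bp from the transcript end site (TES). Over the whole region, a site II match was present in 6 of these 10 (31.3 to 83.2%), an interval that included the 34.6% of all 257. None of the 10 had a G-box, against 37.7% of the 257, but they were narrow, with a median width of 307 bp.

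At the other end, the smallest decreases were those of AT2G32150 (-1.01), PLL4 (-1.01) and AT1G56210 (-1.01), at the limit the authors set. Just inside the distance limit were AT3G13404 at 501 bp, AT1G01310 at 503 bp and AT1G70640 at 506 bp from the nearest TSS, with log2 fold changes of -1.98, -1.41 and -1.97. Just outside it were AT1G14430 at 500 bp, PyrD at 493 bp and EDA6 at 489 bp, with -1.74, -1.68 and -1.62.

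By the feature under the midpoint, 120 regions (46.7%, 40.7 to 52.8) were in coding exons, 64 (24.9%, 20.0 to 30.5) in 3′ UTRs, 57 (22.2%, 17.5 to 27.6) in introns and 16 (6.23%, 3.87 to 9.87) in 5′ UTRs. A base counted as coding where any isoform codes there, then as 5′ UTR, 3′ UTR or intron. Of the genic bases that the position rule admits (49106 kb, hereafter eligible bases), 55.0% were coding, 11.3% 3′ UTR, 31.8% intron and 1.80% 5′ UTR. Relative to eligible bases, most of which need not be open chromatin, both UTRs were over-represented beyond the counting error. Coding exons and introns were under-represented. No such shares were available for unchanged open sites inside genes. Regions with increased accessibility chosen by the same position rule (2728) had nearly the same share in 3′ UTRs (25.8%, difference -6.07 to 4.95 percentage points) but hardly any in 5′ UTRs (0.183%, difference 3.67 to 9.69 points). The share in coding exons was 9.03 points lower than for the increased regions (-15.3 to -2.64), and for introns the interval of the difference included 0 (-0.996 to 9.53).

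**Figure D1:**
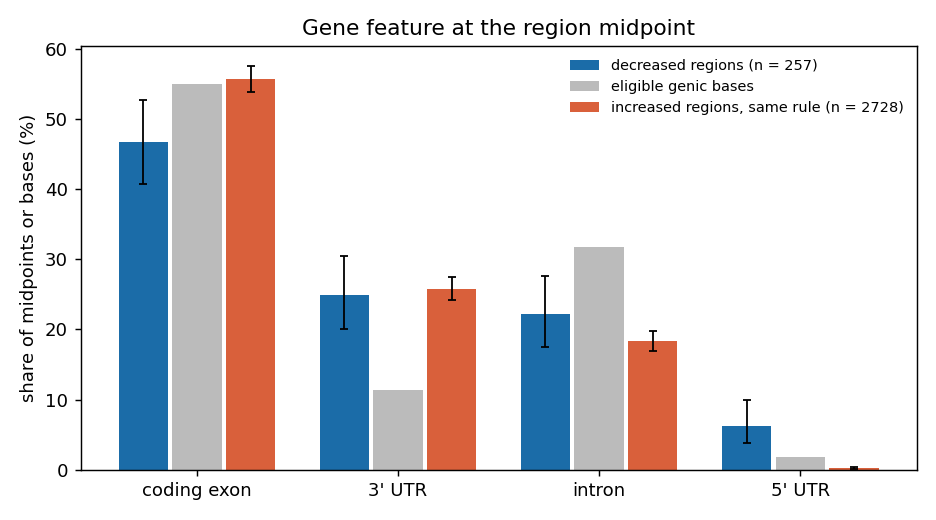
Share of midpoints (%) in each gene feature for the 257 decreased regions (blue) and the 2728 increased regions chosen by the same position rule (red), with 95% Wilson intervals as bars, beside the share of eligible genic bases (grey). Decreased regions exceeded the eligible bases in 3′ UTRs (24.9% against 11.3%) and 5′ UTRs (6.23% against 1.80%).

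In 5′ UTRs, SDE5 (-3.33), ACA4 (-2.85), AT1G31760 (-2.81), the microtubule bundling protein gene ATMAP65-6 (-2.34) and the N-acyltransferase gene AT2G06025 (-2.30) had the largest decreases among the 16. Their median log2 fold change was -1.91, with an interval of the median from -2.34 to -1.55. Coding exons had a median of -1.51 (-1.63 to -1.39), 3′ UTRs -1.68 (-1.87 to -1.51) and introns -1.68 (-1.85 to -1.53), and all 4 intervals overlapped.

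**Figure D2:**
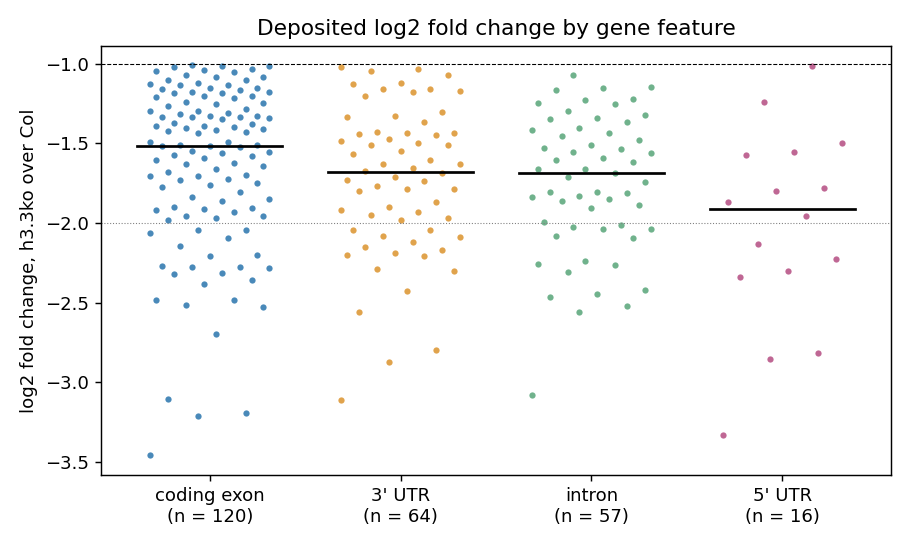
Deposited log2 fold change (mutant over Col) for each of the 257 regions by gene feature. Each point is 1 region, the black line is the median of the class, the dashed line the limit of the list at -1 and the dotted line a 4-fold loss. All 4 classes spread over most of the range, and the median was lowest for 5′ UTRs (-1.91).

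In coding exons the largest decrease after PERK14, AT2G42150, AT4G28080 and AT5G28919 was at AT5G60700 (-2.69), a glycosyltransferase family protein. DND1, which encodes a cyclic nucleotide-gated ion channel, had -2.48 in the second of its 8 exons. COL5, a CONSTANS-like B-box factor, had -2.52 in the last of 2 exons. Of 185 regions in an exon of the representative isoform (the one with the longest coding sequence), 138 (74.6%, 67.9 to 80.3) were in the last exon, which counts 61 regions of single-exon hosts, whose only exon is also the first. In hosts with several exons it was 77 of 124 (62.1%, 53.3 to 70.2). The rule leaves out bases near the TSS and so favours later exons. The share of eligible bases in last exons was not counted.

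In 62 of the 257 regions (24.1%, 19.3 to 29.7) the host had a single exon, whereas 7.96% of eligible bases lie in such genes and 3.67% of the increased regions did (difference 15.6 to 26.1 points). Counted by gene, the contrast was small: 24.0% of host genes (19.2 to 29.6) had a single exon, against 17.6% of genes with eligible bases and 20.4% of all protein-coding genes, the last within the interval. NCED9, which encodes a dioxygenase of abscisic acid synthesis in seeds, and PYR1, an abscisic acid receptor gene, are examples.

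Intronic regions tended to sit in long introns. For the 68 regions whose midpoint was in an intron of the representative isoform, the median intron length was 635.5 bp (480 to 903), compared with 192 bp for the median eligible intron base and 112.5 bp (102 to 121) for the increased regions. The first intron held 27 of the 68 (39.7%, 28.9 to 51.6), and the share of eligible intron bases in first introns was not counted. The largest intronic decrease was at AT4G32460 (-3.08), which encodes a DUF642 cell wall protein. Its second intron is only 111 bp long, and 116 of the 227 bp of the region were coding. Next were the phosphate transporter gene PHT1;4 (-2.56, first intron of 1098 bp) and the bromodomain gene AT2G44430 (-2.52, second intron of 522 bp). AT4G35240 (-2.46) and YSL3 (-2.45, in the third intron, of 234 bp), which encodes a transporter of metal-nicotianamine complexes, followed. Wide regions in short introns reach into exons, and 108 regions touched an intron at all.

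The 3′ UTR class was led by AT5G06330 (-3.11), AT2G26360 (-2.87), the VQ motif gene AT1G78410 (-2.79), BCS1 (-2.56) and RR3 (-2.43, AT2G41310), a type A response regulator of cytokinin signalling whose midpoint was 28 bp from the TES.

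The median distance was 1407 bp to the TSS and 778 bp to the TES. In all, 72 regions lay at 500 to 1000 bp from the TSS of the host, 127 at 1 to 2 kb and 58 farther than 2 kb, and 64 were more than 1 kb from both ends. The farthest were EIN2 at 5935 bp, AT4G36170 at 5767 bp and MUM2, a galactosidase gene of seed coat mucilage, at 5677 bp, with log2 fold changes of -1.05, -1.58 and -1.69. All of these last 3 were within 200 bp of the TES.

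In each 20% of gene length the interval for the 257 regions included the share of eligible bases. Of the 257 regions, 163 (63.4%, 57.4 to 69.1) were nearer to the TES than to the TSS, against 60.6% of eligible bases. In hosts of 2 kb or more the share was 53.9% (46.6 to 61.1), against 57.4% of eligible bases in genes of that length. The increased regions differed sharply, with 2674 of 2728 nearer to the TES and 70.9% in the last 20% of the gene, where 26.5% of the decreased regions lay. The decreased regions were nevertheless more often within 500 bp of the TES (83, 32.3%, 26.9 to 38.2) than the eligible bases (21.1%) and less often farther than 2 kb from the TSS (22.6% against 39.0%).

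**Figure D3:**
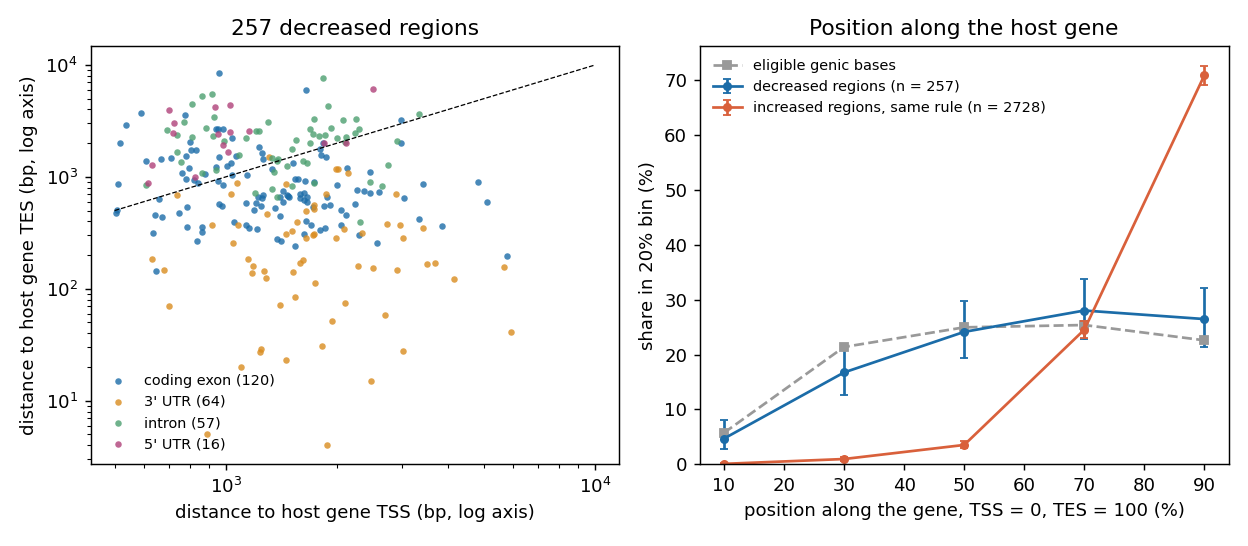
Left, distance of each of the 257 midpoints to the TES against the distance to the TSS of the host gene (bp, log axes), coloured by gene feature, with equal distances on the dashed line. Right, share of midpoints in each 20% of the gene from TSS to TES, with 95% Wilson intervals, for decreased and increased regions, and of eligible bases (grey, dashed); the last bin held 26.5% of decreased and 70.9% of increased regions.

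Host genes had a median length of 2490 bp (2271 to 2656). This was above the 2078 bp of all protein-coding genes, but the rule removes short genes, and the median was 2167.5 bp for genes with eligible bases and 2332 bp for genes over 1 kb. Long genes hold more eligible bases, and weighted by these bases the median gene length was 3159 bp, above that of the hosts. Genes with an increased region by the same rule were longer, with a median of 3485 bp. A second annotated isoform was present in 101 of the 254 host genes (39.8%, 33.9 to 45.9) and in 41.2% of genes with eligible bases.

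Some regions lay near the start of another isoform or inside a non-coding gene. Within 500 bp of an inner TSS, the start of another isoform of the host, were 16 regions (6.23%, 3.87 to 9.87), against 9 of the 2728 increased regions (0.330%). The largest decreases among them were SDE5 (-3.33), AT5G60700 (-2.69, 108 bp from it), TGA4 (-2.42, 424 bp), a bZIP factor gene, CPD (-2.32, 428 bp), which encodes a cytochrome P450 of brassinosteroid synthesis, and AT2G06025 (-2.30, 58 bp). The midpoint of 11 regions (4.28%, 2.41 to 7.50) was also inside a non-coding gene, compared with 41 of the 2728 increased regions. All 11 of these non-coding genes ran antisense to the host. The largest decreases were at AT2G42150 (-3.21), AT5G28919 (-3.11), AT2G26360 (-2.87), the receptor-like kinase gene AT1G08590 (-2.53) and EXO70H6 (-2.32), an exocyst subunit gene. Lying inside a non-coding gene does not place a region at its start. The nearest start of any gene, coding or not, was 1036 bp away at AT2G42150, 779 bp at AT5G28919 and 812 bp at AT2G26360. It was 46 bp away at AT1G08590 and 375 bp at EXO70H6. For both counts the increased regions differed in position as well, with 84.0% over 2 kb from the TSS against 22.6% of the 257. Shares of eligible bases near an isoform TSS or inside a non-coding gene were not counted. ATAC-seq does not tell strands apart, and no RNA was measured in these lists.

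Other regions faced a neighbouring gene. A midpoint 500 to 2000 bp upstream of another gene's TSS was found for 83 regions (32.3%), and for 33.0% of the increased regions (difference -6.40 to 5.50 points). Among the 83 regions within 500 bp of the host TES, 40 (48.2%, 37.8 to 58.8) lay that far upstream of a neighbour, against 32.5% of increased regions equally near a TES (difference 4.91 to 26.5 points). In 35 of these 40 the neighbour was on the same strand as the host. This count is largely set by geometry, because a gene beyond the host TES begins on that side only when it shares the strand. Among the 40 were AT2G26360, with the midpoint 979 bp upstream of the TSS of PEX10, a gene for peroxisome assembly, and HSFB2A (-2.30), a class B heat shock factor gene, 1161 bp upstream of AT5G62030.

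A second change of accessibility was no more frequent in host genes than in protein-coding genes at large. A decreased region within 500 bp of the host's own TSS accompanied 18 of the 257. By gene this was 7.09% of hosts (4.53 to 10.9), and the interval included the 10.4% of all protein-coding genes. Among the 18 were AT5G06330 (-3.11 inside the gene and -2.93 at the TSS), the cytokinin glucosyltransferase gene UGT76C2 (-2.26 and -2.58) and the autophagy gene ATG8G (-1.33 and -2.56). Increased regions by the same rule had a decreased region at the host TSS in 23.4% of cases, 16.4 points more often (difference -19.4 to -12.3).

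An increased region inside the same gene accompanied 18 regions as well, in 17 host genes (6.69%, 4.22 to 10.46). The share was 10.48% for all protein-coding genes and 11.06% for genes with eligible bases, both above the interval, the former only just. In 16 of the 18 the increased region was on the 3′ side of the decreased one. The largest decreases with such a partner were AT5G60700 (-2.69, with 3.20 for the increased region), DND1 (-2.48), AT4G35240 (-2.46 with 3.34), the copper amine oxidase gene CuAO1 (-2.26 with 3.46) and AT1G30590 (-2.23 with 1.86), an RNA polymerase I initiation factor gene. TPS1, the trehalose-6-phosphate synthase gene required for embryo maturation, had -2.13 in a 5′ UTR and 3.09 farther downstream. EIN2 and AT5G47430 were the exceptions. These pairs share the contrast that chose the regions and are a description. All increased regions by the same rule had a median position of 85.5% of gene length, against 64.2% for the 257. Whether the order within the pairs goes beyond that difference was not tested. The nearest listed region of either kind was at a median of 5070 bp from the 257 regions, and 28 had one within 1 kb.

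The sequence of these regions, which the rule did not use, differed from the rest of the genic sequence. The observed/expected CG ratio is the number of CG dinucleotides divided by that expected from the C and G content, so that a sequence without depletion of CG has a ratio near 1. In the central 200 bp the 257 regions had a median ratio of 1.08 (1.04 to 1.18), against 0.564 for all 234038 eligible 200 bp windows and 0.619 (0.606 to 0.628) for the increased regions. Regions of decreased accessibility near a TSS had 1.00 (0.980 to 1.03).

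The difference was present within the host genes themselves. The 1843 eligible windows of the host genes that no decreased region overlapped had a median ratio of 0.752 (0.723 to 0.778), below the regions and above genic windows in general. By feature, the medians for the central 200 bp were 1.20 in coding exons, 1.28 in 5′ UTRs, 1.03 in 3′ UTRs and 1.02 in introns, whereas eligible windows had 0.595, 0.536, 0.577 and 0.504 in the same order. Over their whole width 151 of the 257 (58.8%, 52.7 to 64.6) had a ratio of 1 or more, and 5.90% of the increased regions did (difference 46.7 to 58.8 points). In hosts with several exons the share was 52.8% (45.8 to 59.7), against 4.98% for increased regions, and in single-exon hosts it was 77.4% (65.6 to 86.0). Single regions ranged from 0.112 to 1.84, and the 10 with the largest decrease had a median of 0.734.

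**Figure D4:**
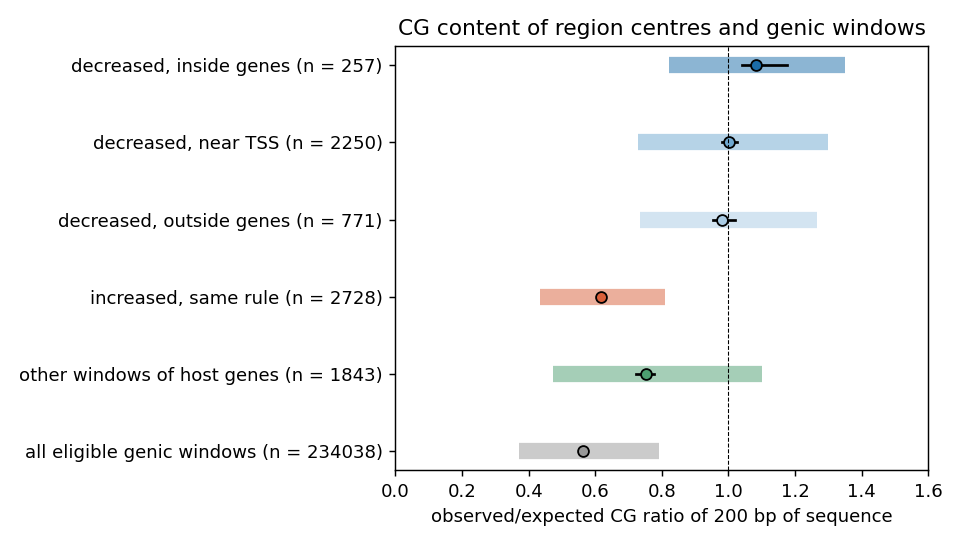
Observed/expected CG ratio of 200 bp sequences: medians (points), 95% intervals of the median (black lines) and quartiles (coloured bars). The 257 decreased regions inside genes (median 1.08) lay near the decreased regions close to a TSS (1.00), above other windows of their own host genes (0.752) and above all eligible genic windows (0.564).

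GC content was above that of the other decreased regions. The median was 40.5% (39.3 to 41.6) over whole regions, compared with 36.6% near a TSS and 34.4% outside genes. The 39.7% (39.5 to 39.9) of the increased regions lay within the interval. The features differ in base composition, and the regions in coding exons (45.4%) stood above those in 3′ UTRs (37.2%) and introns (35.2%). Increased regions had 41.1% in coding exons, 37.4% in 3′ UTRs and 39.2% in introns. Of these features only coding exons had more GC in the 257 regions, and introns had less (interval 33.7 to 38.0). In the central 200 bp the median of the 257 was 42.5% (39.5 to 43.5), against 39% for eligible windows.

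Motif matches were counted as exact letters on either strand in the central 200 bp. A G-box was present in 46 of the 257 (17.9%, 13.7 to 23.0). The share was 17.0% in decreased regions near a TSS (difference -3.58 to 6.28 points) and 21.1% in those outside genes (-8.42 to 2.59). It was 2.64% in the increased regions (difference 15.3 points), 1.69% of eligible windows, 2.71% of the other windows of the host genes and 5.64% of the 200 bp upstream of all TSSs. The G-box share was thus above that of the surrounding genic sequence, while both intervals of the difference from other decreased regions included 0. Over whole regions it was 37.7% against 30.5% near a TSS (difference 1.19 to 13.6 points), where the 257 were also the wider regions. It was found in every gene feature, with 20 of 120 regions in coding exons, 16 of 64 in 3′ UTRs, 8 of 57 in introns and 2 of 16 in 5′ UTRs.

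Further motifs were likewise more frequent in the 257 regions than in increased regions and eligible windows. The core of the abscisic acid response element (ACGTGG or ACGTGT, which can overlap a G-box) was in 28.8% (23.6 to 34.6) of the 257 regions, 9.02% of increased regions and 6.60% of eligible windows. Site II (GGCCCA) was in 17.9%, 2.79% and 2.03%, and in 1.90% of the other windows of the host genes. The core bound by TGA-type bZIP factors (TGACGT) was in 13.2%, 4.03% and 3.77%. Against the other decreased regions no common order was seen. The abscisic acid response core was in 31.1% of those near a TSS and 35.4% of those outside genes. Site II was in 21.2% and 14.9%, and the TGA core in 12.5% and 11.9%. Each interval of the difference from the 257 regions included 0. Over whole regions the TGA core was in 35.4% of the 257 against 23.9% near a TSS (difference 5.67 to 17.8 points). The intervals for site II and the abscisic acid response core still included 0 there. At least 1 of G-box, abscisic acid response core and site II was found in 107 regions (41.6%, 35.8 to 47.7), and in 8.79% of eligible windows.

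Not all promoter letters were frequent. TATAAA was in 17.1% of the regions and 17.8% of eligible windows, but in 29.9% of decreased regions near a TSS (difference -17.3 to -7.38 points). The RY core (CATGCA) of seed maturation promoters was in 5.06% and 7.83%, the telobox (AAACCCTA) in 1.17% and 1.39%, the GA repeat (GAGAGAGA) in 3.11% and 2.26%, and the heat shock core (GAANNTTC) in 18 of 257 and 8.76%. For these 4 the share of eligible windows lay within the interval for the regions. A match describes the letters only, and a missing match says only that they are not in the window.

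**Figure D5:**
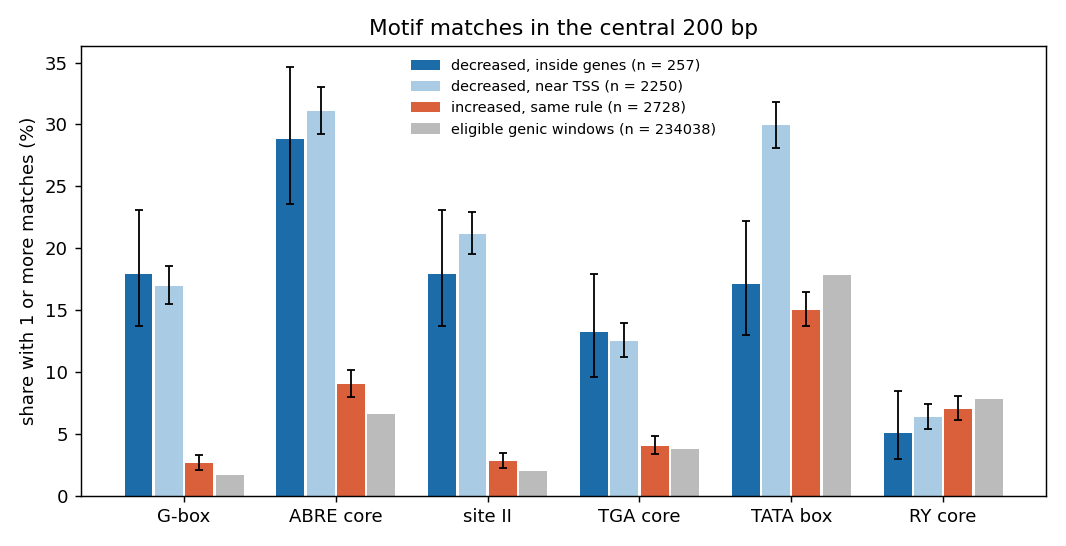
Share (%) of sequences with at least 1 exact match in 200 bp, on either strand, for the 257 decreased regions inside genes, decreased regions near a TSS, increased regions by the same rule (with 95% Wilson intervals) and eligible genic windows. For the G-box the shares were 17.9%, 17.0%, 2.64% and 1.69%, whereas TATAAA was no more frequent in the 257 regions (17.1%) than in eligible windows (17.8%).

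G-box regions were not the ones with the largest loss. Over the whole width, 97 regions (37.7%) had a G-box, with a median log2 fold change of -1.51 and a median width of 741 bp, and 160 had none, with -1.71 and 466.5 bp. Regions of more than 4-fold loss were narrow (384 bp against 635 bp for the rest), so the wider regions offer more sequence to match. In the central 200 bp, which are equal in length, the G-box share was 12.5% (6.47 to 22.8) above 4-fold and 19.7% (14.7 to 25.9) at 2- to 4-fold, with overlapping intervals. For site II it was 23.4% (14.7 to 35.1) and 16.1% (11.6 to 21.9). By distance from the TSS the central G-box share was 19.4% at 500 to 1000 bp, 21.3% at 1 to 2 kb and 8.62% (3.74 to 18.6) beyond 2 kb. Within 500 bp of the TES it was 25.3% (17.2 to 35.6), and more than 1 kb from both ends 12.5%. The TSS and TES classes share regions, and all these intervals overlapped. Over whole regions the shares were 38.9%, 37.0% and 37.9% in order of distance from the TSS. They were 43.4% near the TES and 26.6% far from both ends.

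The host genes were compared with 10 lists of genes of seed and hormone biology. Only 8 of the 257 regions were in a listed gene, and the percentages below stand beside 0.926% of all protein-coding genes. Abscisic acid genes held 2 among 37, both named above, PYR1 (-1.73, in the 3′ UTR 916 bp from the TSS) and NCED9 (-1.13, in the coding exon at 943 bp). Gibberellin genes held 2 among 34, GA2OX6 (-1.91, coding exon), whose enzyme inactivates gibberellin, and GA3OX2 (-1.21, coding exon), whose enzyme makes the active hormone. EIN2 (-1.05, 3′ UTR), the central signal transducer of ethylene, was the only one of 27 ethylene genes, and the auxin response factor gene ARF11 (-1.93, 3′ UTR) the only one of 79 auxin genes.

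HSFB2A (-2.30) was the only one of 50 heat shock factor and chaperone genes. The single gene of 111 in the seed maturation list was AT5G06330 (-3.11), which entered it through the words late embryogenesis abundant in its product name, although hydroxyproline-rich proteins of that name form a family of their own. None of 31 light and clock genes, 37 lipid mobilisation and peroxisome genes, 28 chromatin genes and 72 cell wall genes held such a region. With counts this small no list can be said to differ from the background in regions inside genes. A decreased region within 500 bp of the TSS is a different measure, found in 10.4% of all protein-coding genes. It was present in 10 of 37 abscisic acid, 6 of 34 gibberellin, 4 of 27 ethylene and 12 of 79 auxin genes. For light and clock it was 16 of 31, for seed maturation 18 of 111, and for lipid mobilisation and peroxisome 12 of 37. Heat shock factors and chaperones had 11 of 50, chromatin genes 3 of 28 and cell wall genes 4 of 72.

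By words in the product name, 23 of 1766 transcription factor genes (1.30%, median log2 fold change -1.52) were hosts, with COL5 (-2.52), TGA4 (-2.42) and HSFB2A (-2.30) having the largest decreases. Transporters were 14 of 751 (1.86%, median -1.64), led by AT2G26360 (-2.87), ACA4 (-2.85) and PHT1;4 (-2.56), and EIN2 is counted there because its product is named after metal ion transporters. Protein kinases were 9 of 1067 (0.843%, median -1.33), led by PERK14 (-3.46), AT1G08590 (-2.53) and AT3G44610 (-1.91), and leucine-rich repeat receptors 8 of 415 (1.93%, median -1.61), led by AT1G08590, AT4G33970 (-2.08) and AT1G03440 (-1.97). Cytochrome P450 genes were 7 of 249 (2.81%, median -1.53), led by CPD (-2.32), ROT3 (-1.99) and CYP78A6 (-1.68).

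UDP-glycosyltransferases were 4 of 131 (3.05%, median -2.10), with UGT76C2 (-2.26), UGT85A4 (-2.21) and UGT89B1 (-1.98). Chromatin or histone proteins were 3 of 213 (1.41%), the bromodomain genes AT2G42150 (-3.21), AT2G44430 (-2.52) and AT2G26110 (-1.80). Heat shock and DnaJ proteins were 2 of 268 (0.746%), HSFB2A and AT4G39150 (-1.43), and F-box proteins 1 of 777 (0.129%), AT3G23955 (-2.31). No host was found among 345 ribosomal protein, 280 pentatricopeptide repeat and 199 disease resistance genes. These shares stand beside 0.926% of all protein-coding genes and 0.981% of genes with eligible bases, and the median over all 257 regions was -1.62.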

How the data were processed

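The authors deposited regions of lower and of higher accessibility in *h3.3ko* mature seeds as lists, each region with a log2 fold change over Col. By their methods, reads were trimmed with fastp (0.20.1), aligned to TAIR10 with Bowtie2 and cleared of organelle reads and of duplicates (Picard 2.24.0). MACS2 peaks present in both replicates were merged between genotypes, quantified with deepTools and listed above 2-fold at an adjusted P below 0.05. The test behind that P and a Tn5 offset are not given in the sources used here. Only peaks could be listed, so sites below the peak threshold in both genotypes are missing. The log2 column is the authors' own comparison and is used as a description only.

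Regions were joined to the TAIR10.1 genome and annotation from RefSeq. Nuclear coordinates are shared with TAIR10: none of the regions passed a chromosome end, and shifting all decreased regions by 1000 bp lowered the share with a midpoint within 500 bp of a TSS from 68.6% to 18.3% or less. Genes came from 27444 protein-coding loci, TSS and TES being their outermost ends. Shares carry 95% Wilson, differences Newcombe and medians exact binomial intervals. Functions were tested on simulated data.

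The regions, gene lists and motifs were chosen with earlier results of these data known. The genes named are the 10 largest decreases, all hosts in a gene list (3 per product class), the 5 largest per gene feature, near an isoform TSS, with an increased region or in a non-coding gene, hosts of several regions, the 3 farthest from the TSS and 3 on each side of the distance limit. The few others serve as examples and were chosen after their values were seen. Alternatives covered the TSS set, the distance, the overlap, the isoform, the fold threshold and the window. The imbibed seed and seedling libraries were not analysed here. Python 3.11.15, numpy 2.4.6, scipy 1.17.1 and matplotlib 3.10.9 were used.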

Additional observations from a re-analysis of the deposited data

How the results depend on the processing

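Of 59 alternatives, 46 left the count or share within its interval (counts within 1.5 times). The number of regions was 155 with a limit of 1000 bp from a TSS, 165 with the whole region inside the gene and beyond 500 bp, and 64 above 4-fold, while it was 241 with the TSSs of all isoforms or of non-coding genes. Above 4-fold, coding exons fell to 37.5% and 5′ UTRs were at 10.9%, 54.7% of regions were nearer to the TES than to the TSS, and 21.9% had a G-box in the whole region. In hosts of 2 kb or more, 53.9% were nearer to the TES. Over all bases of the regions 3′ UTRs took 18.6%. In the central 200 bp the G-box share was 17.9% and the median GC content 42.5%. The median host gene length exceeded that of all protein-coding genes by 412 bp and that of genes over 1 kb by 158 bp, but it was below the 3159 bp of the median eligible base. An increased region overlapping the host or 1 kb upstream accompanied 11.3% of the regions. A limit farther from the TSS or a higher fold can only lower the number of regions, a shorter window can only lower the G-box share, and a wider overlap can only raise the share with an increased region. The causes of the other moves were not tested. No count of genes in a gene list changed when every overlapped gene was a host. No paired analysis was possible because the lists hold 1 pooled value per region, and leaving out a replicate was not run for the same reason. Depth decides which regions could be listed, and its effect was not tested.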

Other observations

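Some hosts outside the lists belong to hormone pathways, and were picked out after their values were seen. In brassinosteroid metabolism, CPD (-2.32, coding exon) and ROT3 (-1.99, intron) act in synthesis and BAS1 (-1.07, intron) in inactivation. In the jasmonate pathway, DAD1 (-2.06, coding exon), AOC4 (-2.36, coding exon) and AOS (-1.15, coding exon) act in synthesis and JAZ10 (-1.60, 3′ UTR) is a repressor of the response. The cytokinin genes IPT5 (-1.73, 3′ UTR), a synthesis gene, and RR3 (-2.43, 3′ UTR) were hosts as well. Values are log2 fold changes from the deposited list, and no test was made of the pathways.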
